A study of Mus musculus with 12 samples.

Results

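Glycolysis and hypoxia response genes were followed as a group of 10 named genes in the mouse aorta after elastase infusion: Slc2a1, Hk2, Pfkp, Pgk1, Eno1, Ldha, Slc16a3, Pdk1, Egln3 and Bnip3. The genes were taken by name from a list of glycolytic and hypoxia-induced genes, and each was represented by the RefSeq accession with the highest mean level over all libraries. All 10 were among the 24341 named genes with a row in the count table. Of them 8 had a count above 0 and passed the filter on low counts, among 12756 features of 12239 genes tested. Eno1 and Slc16a3 had a count of 0 in all 12 libraries.

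The aortas came from male C57BL/6J mice aged 10 weeks, in 3 groups of 4 animals and 4 libraries each. In the groups called PPE week 1 and PPE week 2 the infrarenal segment received porcine pancreatic elastase (PPE), which breaks down elastin in the wall so that the segment dilates, and the aorta was taken at day 7 or day 14. In the saline group the same segment received saline and the aorta was taken at day 7. PPE week 2 and saline therefore differ in the time since surgery as well as in the infusion, and the 2 cannot be told apart. The labels name the tissue as aorta and do not say which layers of the wall or how much surrounding tissue each sample held.

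Glycolysis breaks glucose down to pyruvate in the cytosol. Glucose enters through transporters such as the protein of Slc2a1 (GLUT1), is trapped by hexokinase (Hk2), passes the phosphofructokinase step (Pfkp) and yields ATP at phosphoglycerate kinase (Pgk1), and enolase (Eno1) makes the substrate of the last step to pyruvate. Lactate dehydrogenase A (Ldha) turns pyruvate into lactate, which leaves through the transporter MCT4 (Slc16a3). Pyruvate dehydrogenase kinase 1 (Pdk1) inactivates pyruvate dehydrogenase, the enzyme that uses pyruvate in the mitochondria. When oxygen is low, the prolyl hydroxylases of the Egln genes no longer mark hypoxia-inducible factor (HIF) for destruction, and HIF raises many of these genes, including Egln3 itself and Bnip3, a mitochondrial protein that promotes mitophagy.

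HIF dimers recognise the core letters ACGTG or GCGTG. The 250 bases before the annotated start of 4 of the genes are printed from RefSeq's GRCm38.p6 table, with every match to ACGTG or GCGTG on either strand in capitals (CACGT and CACGC are the same letters read on the other strand). Slc2a1 is shown because it was the member whose level changed, Hk2 because it had the highest level in CPM, Bnip3 because its window holds the most matches of the 4, and Pgk1 as an enzyme of the pathway itself.

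Slc2a1 promoter, + strand of chr4:119108495-119108744: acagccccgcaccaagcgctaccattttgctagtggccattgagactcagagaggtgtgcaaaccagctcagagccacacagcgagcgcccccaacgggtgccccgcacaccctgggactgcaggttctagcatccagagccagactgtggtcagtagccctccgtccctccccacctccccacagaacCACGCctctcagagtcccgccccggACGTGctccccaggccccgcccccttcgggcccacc
Hk2 promoter, - strand of chr6:82774455-82774704: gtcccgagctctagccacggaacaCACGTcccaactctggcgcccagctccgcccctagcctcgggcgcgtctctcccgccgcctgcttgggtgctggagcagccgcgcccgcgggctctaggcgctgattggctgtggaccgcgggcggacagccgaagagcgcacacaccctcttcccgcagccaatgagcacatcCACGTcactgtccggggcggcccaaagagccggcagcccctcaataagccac
Bnip3 promoter, - strand of chr7:138909507-138909756: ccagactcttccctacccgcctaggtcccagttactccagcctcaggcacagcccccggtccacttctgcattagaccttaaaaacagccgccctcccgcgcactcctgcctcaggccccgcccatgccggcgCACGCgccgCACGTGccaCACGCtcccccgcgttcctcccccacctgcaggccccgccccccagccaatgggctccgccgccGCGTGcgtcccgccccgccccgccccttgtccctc
Pgk1 promoter, + strand of chrX:106186850-106187099: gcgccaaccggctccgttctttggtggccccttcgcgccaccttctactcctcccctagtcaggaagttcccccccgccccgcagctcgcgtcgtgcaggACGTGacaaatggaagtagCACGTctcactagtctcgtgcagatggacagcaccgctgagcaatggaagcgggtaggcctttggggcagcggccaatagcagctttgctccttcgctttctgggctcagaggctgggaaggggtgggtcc

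In Bnip3 the run CACGTG holds a match on each strand, so its 4 capital runs are 5 matches, against 2 in each of the other 3 windows. A match lay in at least 1 window of all 10 member genes and in 13 of their 14 windows, against 38.6% of 32851 windows and 41.5% of 27025 genes in the table. The median GC content was 65.2% over the member windows, against 52.4% over all windows. A match is a description of the letters in this window, and nothing here measured HIF binding. Members that were not called carry the letters too, so their presence did not separate Slc2a1 from the other members.

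Levels are given as CPM, counts of a gene per 1000000 in its library, after scaling by the trimmed mean of M values (TMM). Libraries held 8343313 to 12269131 counts. The ribosomal RNA precursor NR_046233 took 21.0 to 34.6% of the counts at PPE week 1, 19.5 to 22.1% at PPE week 2 and 36.2 to 49.9% in saline, so the share was below every saline library in all 8 PPE libraries. Of the 8 smooth muscle markers all had counts, and their summed level was 1611 to 2902 CPM at PPE week 1, 4461 to 9985 CPM at PPE week 2 and 4896 to 6426 CPM in saline. Of the defining markers of other cells, Pecam1 and Tek (endothelium), Itgam (myeloid cells), S100a9 (neutrophils), Klrb1c (NK cells), Hba-a1 and Hbb-bs (red cells), Acta1 (skeletal muscle) and Prph (nerve) were listed at 0 in all 12 libraries. In bulk tissue, fewer cells of a type and less RNA per cell cannot be told apart, and this holds for every level below.

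Among the members, Slc2a1 rose at PPE week 1 and no other member passed the test in any comparison. A feature was called where edgeR's quasi-likelihood test gave a Benjamini-Hochberg adjusted p under 0.05 over all 12756 features. At PPE week 1 against saline 1 of 8 tested members was called, higher, where 7.89% of all features were called, 3.98% higher and 3.91% lower. In the comparison of PPE week 2 with saline 0 of 8 were called, where 2.65% of all features were called, 1.30% higher and 1.35% lower; 2 members, Slc2a1 and Bnip3, had an unadjusted p under 0.05 there, and DESeq2 called 1. Between PPE week 2 and PPE week 1 again 0 of 8 were called, where 6.59% of all features were called, 3.77% higher and 2.82% lower; 2 members, Bnip3 and Slc2a1, had an unadjusted p under 0.05 and DESeq2 called 0. A share of 1 in 8 is a single gene, so these counts do not set the members apart from other features. The share of all features with an unadjusted p under 0.05 is not given, here or below. Counts at that level therefore have no background beside them. The 2 comparisons with saline share the saline libraries.

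**Figure D1:**
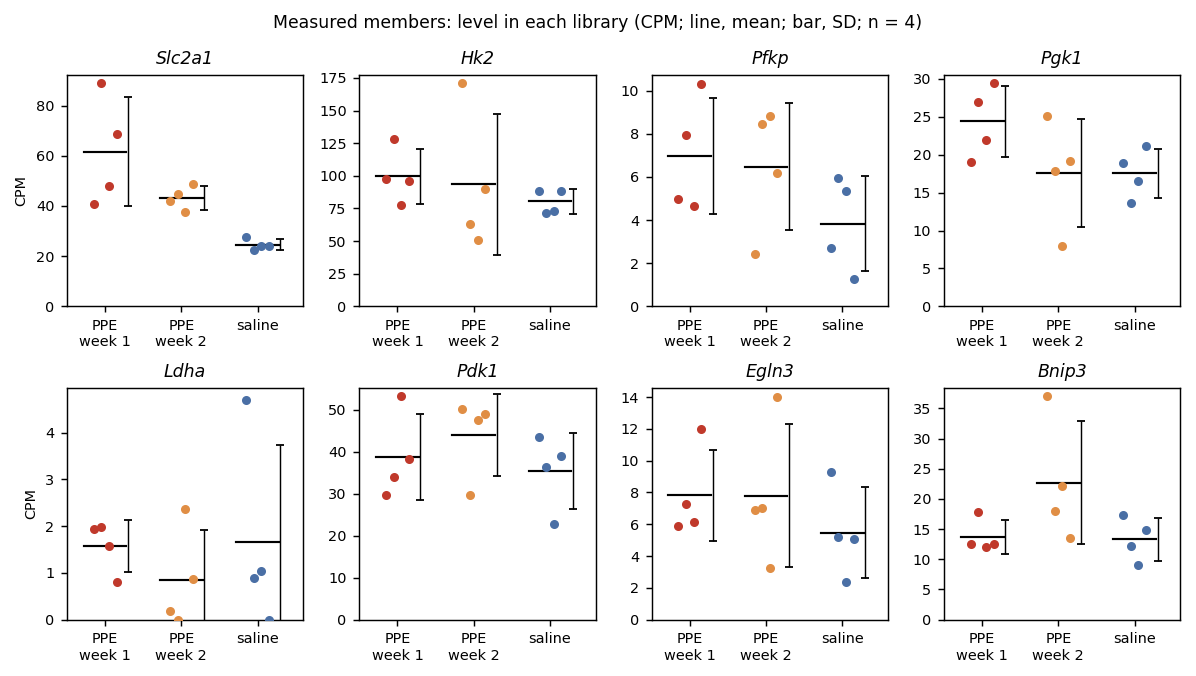
Level in CPM (vertical axis, linear, from 0) of the 8 members with counts, in PPE week 1, PPE week 2 and saline; each point is 1 library, the line is the mean and the bar beside it the SD over 4 libraries. Slc2a1 shows no overlap between either PPE group and saline, with 40.6 to 89.0 and 37.6 to 48.9 CPM against 22.5 to 27.8 CPM, while the groups of the other 7 genes overlap.

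Slc2a1 (NM_011400, chr4:119108745-119137330; gene coordinates here are those of GRCm38.p6), the widely expressed glucose transporter GLUT1, had 40.6, 89.0, 48.0 and 68.8 CPM at PPE week 1. It had 41.9, 44.9, 37.6 and 48.9 CPM at PPE week 2. The saline libraries had 27.8, 22.5, 23.9 and 24.2 CPM. Every PPE library lay above every saline library, the 4 libraries of PPE week 1 were spread widely, and those of PPE week 2 and of saline were close together. The mean was 61.6 ± 21.8 CPM at PPE week 1 and 24.6 ± 2.24 CPM in saline (SD, n = 4 each), a log2 fold change of 1.32 ± 0.23 (SE) or 2.50-fold, with an adjusted p of 0.00328 by edgeR. Its mean at PPE week 2 was 43.3 ± 4.80 CPM (SD, n = 4), and the log2 fold change against saline was 0.82 ± 0.23, with an edgeR adjusted p of 0.0666 that missed the threshold. The level at PPE week 2 differed from that at PPE week 1 by a log2 fold change of -0.51 ± 0.22, with an edgeR adjusted p of 0.207, so a decline between the weeks was not called. Groups that do not overlap are not rare in these data: they were seen for 21.1% of all features at PPE week 1 against saline and 8.99% at PPE week 2 against saline, and for 15.9% between the PPE weeks.

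The call of Slc2a1 at PPE week 1 did not rest on 1 library. Without PPE week 1 replicate 2, the highest, the log2 fold change was 1.09 ± 0.22 with an edgeR adjusted p of 0.0170, and over all 12 omissions of 1 library the adjusted p stayed between 0.00186 and 0.0170. The call was lost when the share of NR_046233 entered the model as a covariate, where the log2 fold change was 1.35 and the edgeR adjusted p 0.0680. A call at PPE week 2 was made by DESeq2, with a log2 fold change of 0.81 and an adjusted p of 0.0295, and by edgeR with scaling to the total count, where the log2 fold change was 1.30, or 0.76 above the median of all features, with an adjusted p of 0.0041. In the authors' deposited table the log2 fold change of Slc2a1 was 1.24 at PPE week 1, with an adjusted p of 3.01e-06. In the authors' deposited table it was 0.756 at PPE week 2, with an adjusted p of 0.0123, so their test called the gene at both weeks.

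**Figure D2:**
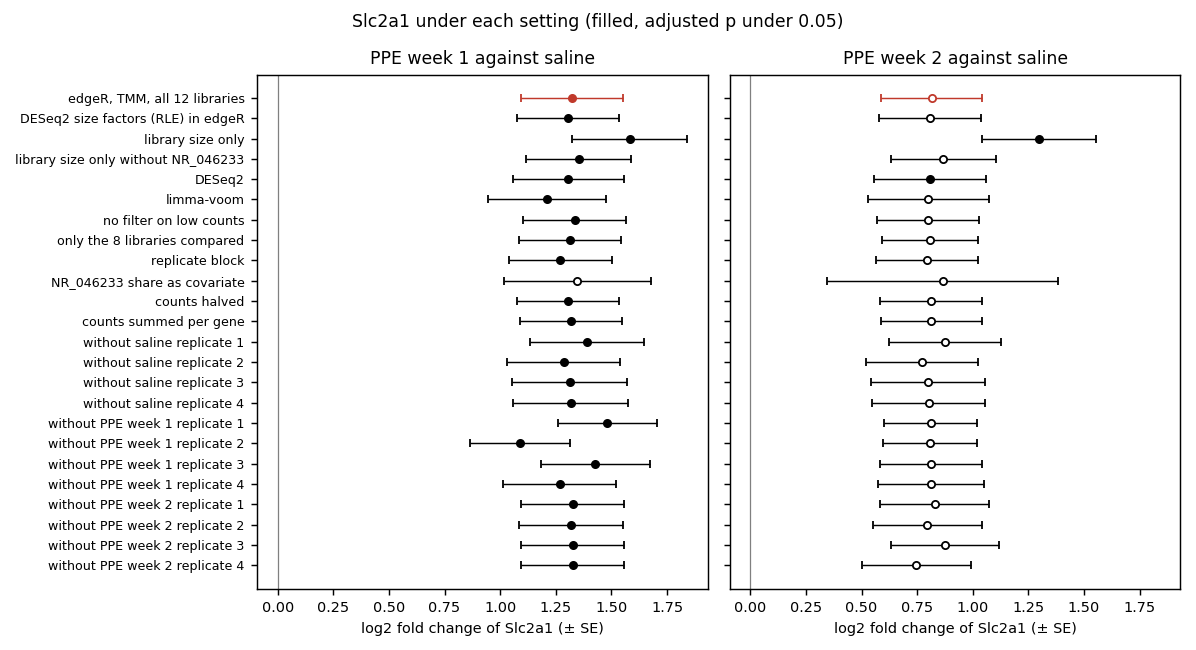
Log2 fold change of Slc2a1 against saline (horizontal axis, bars ± SE) at PPE week 1 (left) and PPE week 2 (right) under the reported fit, in red at the top, and 23 alternatives; filled points have an adjusted p under 0.05. The value at PPE week 1 stayed between 1.09 and 1.58 and lost its call in 1 alternative, and at PPE week 2 it stayed between 0.75 and 1.30 and gained a call in 2.

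Cell markers moved with the level of Slc2a1 at PPE week 1. The summed level of 10 macrophage and monocyte markers, 9 of them with counts, was 4150 to 5380 CPM at PPE week 1, 1254 to 3403 CPM at PPE week 2 and 2091 to 2578 CPM in saline. PPE week 1 replicate 2 was highest in Slc2a1, in these macrophage markers, and also in the neutrophil and the T and NK cell sums given next. The 7 neutrophil markers, 6 with counts, summed to 39.1 to 139 CPM at PPE week 1, 4.03 to 18.4 CPM at PPE week 2 and 8.28 to 21.5 CPM in saline. The 6 T and NK cell markers, 5 with counts, summed to 88.9 to 119 CPM at PPE week 1, 17.5 to 116 CPM at PPE week 2 and 12.8 to 31.5 CPM in saline. At PPE week 1 against saline Cd68 and Cd14 were called higher among the macrophage markers, Cd3g and Ncr1 among the T and NK cell markers, and none of the 4 tested neutrophil markers. In replicates 1 and 3 of PPE week 2 the macrophage sum was 1296 and 1254 CPM, below every saline library, and Slc2a1 in those replicates, 41.9 and 37.6 CPM, was above every saline library. The part of macrophages, neutrophils, T and NK cells and the NR_046233 share in the level of Slc2a1 was not tested.

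Over 12 commonly used reference genes, the summed level was 7920 to 9259 CPM at PPE week 1, 4539 to 7450 CPM at PPE week 2 and 4727 to 5359 CPM in saline. The median log2 fold change of the 11 reference genes tested was 0.32 at PPE week 1 and 0.04 at PPE week 2, against 1.32 and 0.82 for Slc2a1. The planned list of reference genes held Pgk1, a member, and Tfrc, which was also listed as hypoxia-induced. The reference genes may therefore overlap the genes studied. Of the reference genes, B2m and Actb were called higher at PPE week 1 against saline. Ppia was called lower at PPE week 2 against saline, and Gusb lower at PPE week 2 against PPE week 1.

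The genes whose centred log2 CPM followed that of Slc2a1 most closely over the 12 libraries were Kdm6b and Ninj1. Their mean absolute difference from Slc2a1 was 0.187 and 0.203 on the log2 scale, where the median over 12238 genes was 0.705. Kdm6b, a histone H3 lysine 27 demethylase, rose at PPE week 1 with a log2 fold change of 0.96 ± 0.17 (edgeR adjusted p = 0.00328) and at PPE week 2 with 0.69 ± 0.17 (edgeR adjusted p = 0.0353). Ninj1, a membrane protein known for plasma membrane rupture in dying cells, rose at PPE week 1 with a log2 fold change of 1.24 ± 0.31 (edgeR adjusted p = 0.0208), and had 0.67 ± 0.30 at PPE week 2 (edgeR adjusted p = 0.274). Both were picked for their likeness, so their direction adds nothing independent to that of Slc2a1.

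Hk2 (NM_013820, chr6:82725025-82774454), the hexokinase isoform that is induced in growing and insulin-responsive tissue, was the most abundant member in CPM. It had 97.3, 128, 77.4 and 96.2 CPM at PPE week 1. Its PPE week 2 libraries had 171, 63.0, 51.1 and 89.7 CPM. In saline it had 88.4, 71.5, 73.2 and 88.6 CPM. The 3 groups overlapped, and PPE week 2 held both the highest and the lowest library. Its log2 fold change was 0.31 ± 0.30 at PPE week 1 and 0.22 ± 0.30 at PPE week 2, with edgeR adjusted p of 0.643 and 0.789. Without PPE week 2 replicate 1 the value at PPE week 2 turned to -0.24 ± 0.20 with an edgeR adjusted p of 0.600.

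PPE week 2 replicate 1 also stood apart in adipocyte markers. The 6 white and brown adipocyte markers summed to 844 CPM in that library and to 56.8 to 318 CPM in the other PPE week 2 libraries, to 72.7 to 138 CPM at PPE week 1 and to 116 to 461 CPM in saline. Ucp1, the uncoupling protein of brown fat, had 226 CPM in that library, and 0.192 to 28.4 CPM in the other PPE week 2 libraries. The part of fat tissue in the levels of Hk2 was not tested.

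Pfkp (NM_019703, chr13:6579874-6649060) encodes the platelet form of phosphofructokinase. It had 4.96, 7.96, 4.64 and 10.3 CPM at PPE week 1, 2.42, 8.44, 8.84 and 6.19 CPM at PPE week 2, and 2.70, 5.96, 5.36 and 1.29 CPM in saline. The groups overlapped, with log2 fold changes of 0.86 ± 0.56 and 0.76 ± 0.56 against saline at the 2 weeks. Their edgeR adjusted p were 0.417 and 0.548. The table held a second accession of Pfkp, and 1619 of the 4145 bases of NM_019703 are in no other accession, so the level may be that of part of the transcript.

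Pgk1 (NM_008828, chrX:106187100-106203699), the enzyme of the ATP-yielding step, had 19.1, 27.0, 22.0 and 29.5 CPM at PPE week 1. It had 25.1, 17.9, 7.97 and 19.2 CPM at PPE week 2, and in saline 18.9, 13.6, 16.5 and 21.1 CPM. The groups overlapped. Against saline the log2 fold change was 0.48 ± 0.31 at PPE week 1 and 0.0027 ± 0.31 at PPE week 2, with edgeR adjusted p of 0.422 and 0.998, and the sign of the second value changed with the processing. Of the 50-base words of this transcript 68.0% also occur in transcripts of other genes, so reads of near-identical copies could be counted here or lost, and the level is uncertain.

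Ldha (NM_001136069, chr7:46842274-46855627) was close to the limit of detection. It had 1.93, 1.99, 1.57 and 0.798 CPM at PPE week 1, 0.187, 0, 2.36 and 0.864 CPM at PPE week 2, and 4.70, 0.894, 1.05 and 0 CPM in saline. These values rest on 177 counts over all 12 libraries, of which 54 were in saline replicate 1. The log2 fold changes of -0.09 ± 1.30 and -0.96 ± 1.32 carried an error as large as or larger than themselves. Only 307 of the 1815 bases of this accession are in no other accession, and the other 2 accessions of Ldha had 0 counts.

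Eno1 (NM_023119, chr4:150236708-150248879) and Slc16a3 (NM_030696, chr11:120948484-120959000) had no count in any library. A total of 3 counts over the 4 libraries of a group, the limit that a count of 0 allows, corresponds to 0.0692 CPM at PPE week 1, 0.0646 CPM at PPE week 2 and 0.0893 CPM in saline. This limit covers counting error only and applies to reads assigned to these accessions, not to the genes' RNA. It also takes counts as independent. Between 66.0 and 75.6% of counts of 2 to 20 were even, so counts may come in pairs and the limit may be higher. For Eno1 72.2% of the 50-base words occur in transcripts of other genes, and for Slc16a3, which has 3 accessions in the table, 100 of 2272 bases are in no other accession. Gapdh, which cells of all types use, had 2 counts in all 12 libraries. The 0 of Eno1 and Slc16a3 is therefore given as a listed value and not as absence.

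Pdk1 (NM_172665, chr2:71873215-71903858) encodes a kinase that inactivates pyruvate dehydrogenase. It had 29.6, 33.9, 53.3 and 38.2 CPM at PPE week 1, 50.1, 29.6, 47.5 and 48.9 CPM at PPE week 2, and 43.6, 36.5, 22.7 and 39.1 CPM in saline. The groups overlapped, and 3 of 4 libraries of PPE week 2 lay above every saline library. Against saline the log2 fold changes were 0.13 ± 0.25 and 0.31 ± 0.25, with edgeR adjusted p of 0.844 and 0.598.

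Egln3 (NM_028133, chr12:54178981-54203874), an oxygen-dependent prolyl hydroxylase that is itself a HIF target, had 5.87, 7.30, 6.14 and 12 CPM at PPE week 1. It had 6.90, 7.00, 3.24 and 14.0 CPM at PPE week 2 and 9.32, 5.21, 2.35 and 5.05 CPM in saline. The groups overlapped. Its log2 fold change was 0.50 ± 0.51 in each comparison with saline, with edgeR adjusted p of 0.654 and 0.695.

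Bnip3 (NM_009760, chr7:138890836-138909506) had 12.5, 17.9, 12 and 12.5 CPM at PPE week 1. It had 37.0, 18.0, 22.2 and 13.5 CPM at PPE week 2, and in saline 17.3, 12.2, 9.02 and 14.9 CPM. Of the PPE week 2 libraries 3 of 4 lay above every saline library, and replicate 1, the library high in adipocyte markers, lay highest. The log2 fold change at PPE week 2 was 0.76 ± 0.33 against saline and 0.73 ± 0.33 against PPE week 1, with edgeR adjusted p of 0.245 and 0.214. Without PPE week 2 replicate 1 these values were 0.41 ± 0.32 and 0.38 ± 0.32. For PPE week 1 against saline the value was 0.03 ± 0.33 with an edgeR adjusted p of 0.972. With scaling to the total count edgeR called Bnip3 higher at PPE week 2 against saline. There the log2 fold change was 1.21, or 0.675 above the median of all features, with an edgeR adjusted p of 0.0299. Of the 50-base words of Bnip3 62.4% occur in transcripts of other genes, so its level is uncertain too.

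**Figure D3:**
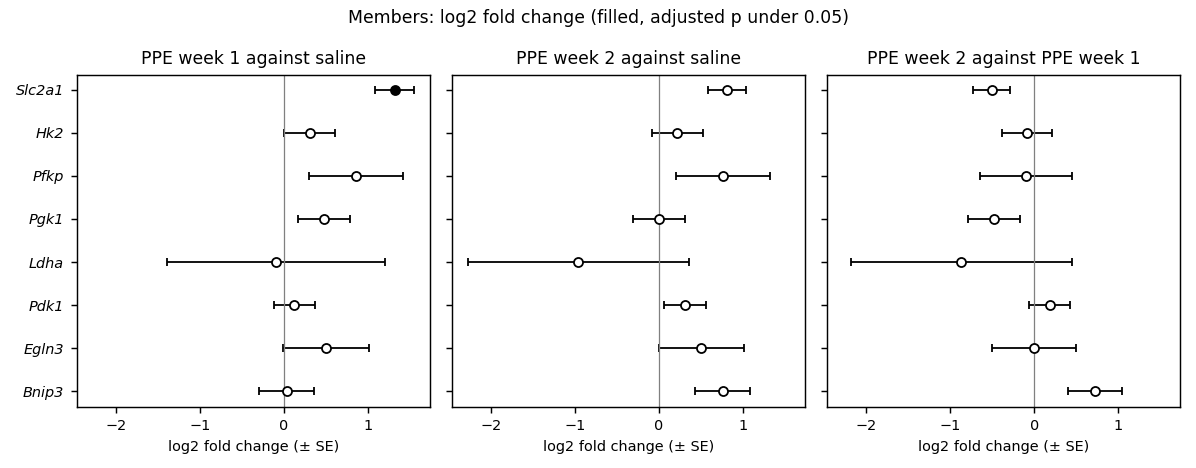
Log2 fold change of the 8 tested members (horizontal axis, bars ± SE) in the 3 comparisons; filled points have an edgeR adjusted p under 0.05. Slc2a1 at PPE week 1 against saline, at 1.32, is the only filled point, and the bars of Ldha, with an SE of 1.30 to 1.32, are the widest.

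Over the 8 tested members the median log2 fold change was 0.39 at PPE week 1 against saline, with 7 of 8 above 0, where the median over all features was 0.0027. It was 0.41 at PPE week 2 against saline, with 7 of 8 above 0, where the median over all features was 0.05. Between PPE week 2 and PPE week 1 it was -0.10, with 2 of 8 above 0, where the median over all features was 0.02. Of all features 50.2, 53.7 and 51.3% lay above 0 in these comparisons. The 7 members above 0 included Bnip3 at 0.03 at PPE week 1 and Pgk1 at 0.0027 at PPE week 2, whose signs changed with the processing. The members that passed the filter did so with counts in all 3 groups, and Ldha alone had libraries at 0.

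Per kilobase of transcript the order of the members can be compared within a group. Slc2a1 and Hk2 were highest at PPE week 1, at 18.9 ± 6.70 and 18.1 ± 3.78 CPM per kb, and did not differ beyond their spread. Hk2 at PPE week 2 had 17.0 ± 9.77 and Slc2a1 13.3 ± 1.47 CPM per kb, again within their spread. In saline Hk2 was highest, at 14.6 ± 1.70 CPM per kb, above Pgk1 at 9.59 ± 1.77, Bnip3 at 7.61 ± 2.03, Slc2a1 at 7.54 ± 0.688 and Pdk1 at 6.84 ± 1.73 CPM per kb, the last 4 of which overlapped (SD, n = 4). Of the 8 members with counts, Egln3, Pfkp and Ldha were lowest in every group, at or below 2.94 CPM per kb. Pgk1 and Bnip3 share sequence with transcripts of other genes, and Pfkp and Ldha share bases with other accessions of the same gene. How far counting set the level of these members was not tested.

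The other genes of the pathways were read from lists chosen by function. Of 19 glycolytic enzymes, 5 of them members, 13 were tested and 0 were called by edgeR in any of the 3 comparisons. With an unadjusted p under 0.05 there were 1 higher at PPE week 1 against saline, 2 higher at PPE week 2 against saline and 0 between the weeks. Their median log2 fold change was 0.31 at PPE week 1, 0.21 at PPE week 2 and -0.21 between PPE week 2 and PPE week 1. The 2 at PPE week 2 were Pfkl and Pkm, and Pkm, pyruvate kinase M, had a log2 fold change of 1.16 ± 0.48 (edgeR adjusted p = 0.222). In the 1 row that stood for the gene, Pkm had 3.93 to 10.7 CPM at PPE week 2 and 1.70 to 4.70 CPM in saline. These levels are low and may not be those of the whole gene. Hk3, Aldoc, Gapdh, Eno1, Eno3 and Ldhb had too few counts to be tested. Hk1, Pfkm, Aldoa, Eno2 and Ldha were tested with an SE of 0.996 to 1.675 on the log2 scale. For these enzymes the lack of a call therefore says little.

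Isoforms of the members did not pass the test either. Pfkl, the liver phosphofructokinase, had 0.18 ± 0.28 at PPE week 1 and 0.72 ± 0.28 at PPE week 2 (log2, against saline; edgeR adjusted p = 0.793 and 0.189). Slc16a1, the lactate transporter MCT1, had 48.5, 78.4, 47.5 and 58.9 CPM at PPE week 1, 80.0, 22.3, 35.4 and 39.1 CPM at PPE week 2, and 74.1, 39.6, 37.0 and 38.4 CPM in saline. These groups overlapped, with log2 fold changes of 0.30 ± 0.34 and -0.10 ± 0.34 against saline. Hk1, Pfkm and Eno2 were at 6.23 CPM or lower in every library. Of 9 glucose and lactate transport genes 7 were tested, and Slc2a1 at PPE week 1 was the only call.

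**Figure D4:**
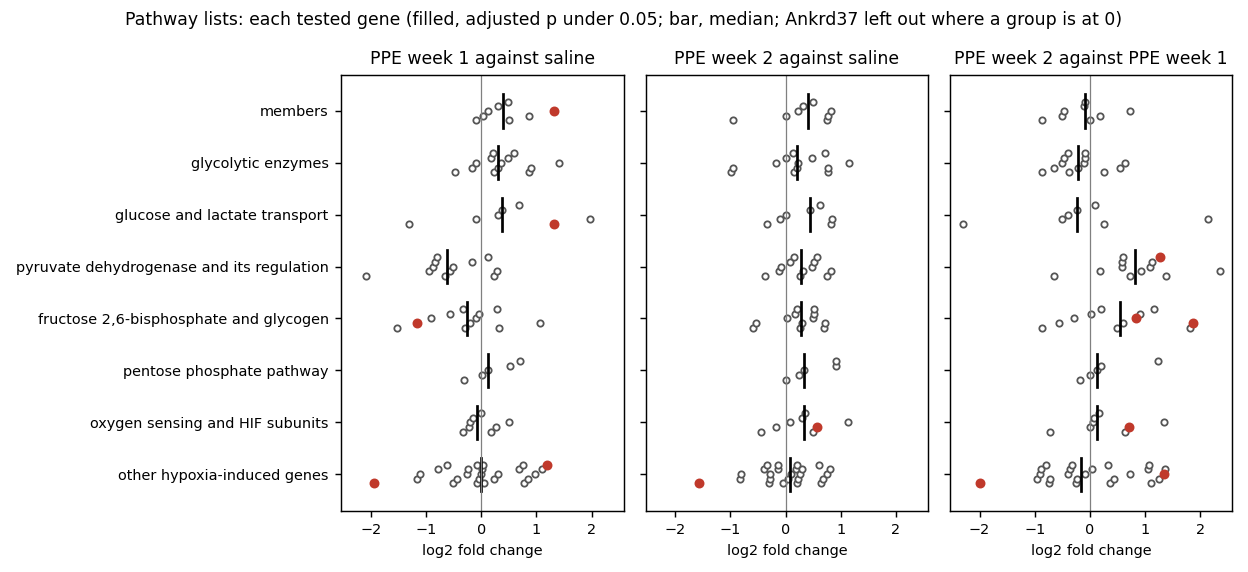
Log2 fold change (horizontal axis) of each tested gene of 8 lists in the 3 comparisons; filled points have an edgeR adjusted p under 0.05, the black bar is the list's median, and Ankrd37 is left out where a group is at 0. The lists on pyruvate dehydrogenase and on fructose 2,6-bisphosphate and glycogen have their medians below 0 at PPE week 1 (-0.61 and -0.25) and above 0 between PPE week 2 and PPE week 1 (0.82 and 0.56).

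Pyruvate enters the mitochondria through a carrier and is used by pyruvate dehydrogenase, which kinases switch off and phosphatases switch on. Of the 12 tested genes of this list 0 were called by edgeR at PPE week 1 against saline, and 3 of 12 lay above 0. Their median log2 fold change was -0.61, and 5 of 12 had an unadjusted p under 0.05, all lower. Pdhb, among these 5, had an edgeR unadjusted p of 0.0407 and adjusted p of 0.203, so such p were common over all features. Against saline, 0 of 12 were called at PPE week 2, the median was 0.28 and 1 gene had an unadjusted p under 0.05. Between PPE week 2 and PPE week 1 the median was 0.82, an unadjusted p under 0.05 was found for 7 genes with higher and 1 with lower levels, and 1 gene, Pdhb, was called by edgeR.

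Pdhb, the beta subunit of the first pyruvate dehydrogenase enzyme, had 57.9, 14.1, 41.2 and 31.2 CPM at PPE week 2 and 13.6, 15.1, 12 and 18.9 CPM at PPE week 1. Replicate 2 of PPE week 2 lay within the range of PPE week 1, so the groups overlapped. The difference was a log2 fold change of 1.28 ± 0.36, with an edgeR adjusted p of 0.0431. The call was lost with limma-voom, with only the 8 libraries compared, with the replicate number as a block and with the NR_046233 share as a covariate, at adjusted p of 0.0656 to 0.233. It was also lost without each of 9 libraries (saline replicates 1, 2 and 4, PPE week 1 replicates 1 to 4, PPE week 2 replicates 1 and 3), at adjusted p of 0.0521 to 0.148.

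Pdk4, the pyruvate dehydrogenase kinase induced by fasting and fatty acids, showed the widest differences among the kinases. It had 12.3, 20.2, 29.9 and 20.5 CPM at PPE week 1, 242, 31.4, 61.4 and 88.6 CPM at PPE week 2, and 91.5, 59.6, 39.3 and 164 CPM in saline. Every library of PPE week 1 lay below every library of the other groups. Its log2 fold change was -2.10 ± 0.64 at PPE week 1 against saline and 2.35 ± 0.65 between PPE week 2 and PPE week 1, with edgeR adjusted p of 0.0769 and 0.0579, so neither was called. Pdk2 had 1.13 ± 0.38 and Pdk3 had -0.65 ± 0.27 between PPE week 2 and PPE week 1, with edgeR adjusted p of 0.0963 and 0.182.

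These values lay beside those of fat. Slc2a4, the insulin-responsive transporter of muscle and fat, had 7.07, 7.30, 15.9 and 10.9 CPM at PPE week 1, 106, 4.12, 37.4 and 36.0 CPM at PPE week 2, and 21.5, 32.8, 14.5 and 33.3 CPM in saline. Within PPE week 2, Pdk4, Pdhb, Slc2a4 and the adipocyte sum were each highest in replicate 1 and lowest in replicate 2. The part of fat and of smooth muscle in the pyruvate dehydrogenase genes was not tested.

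**Figure D5:**
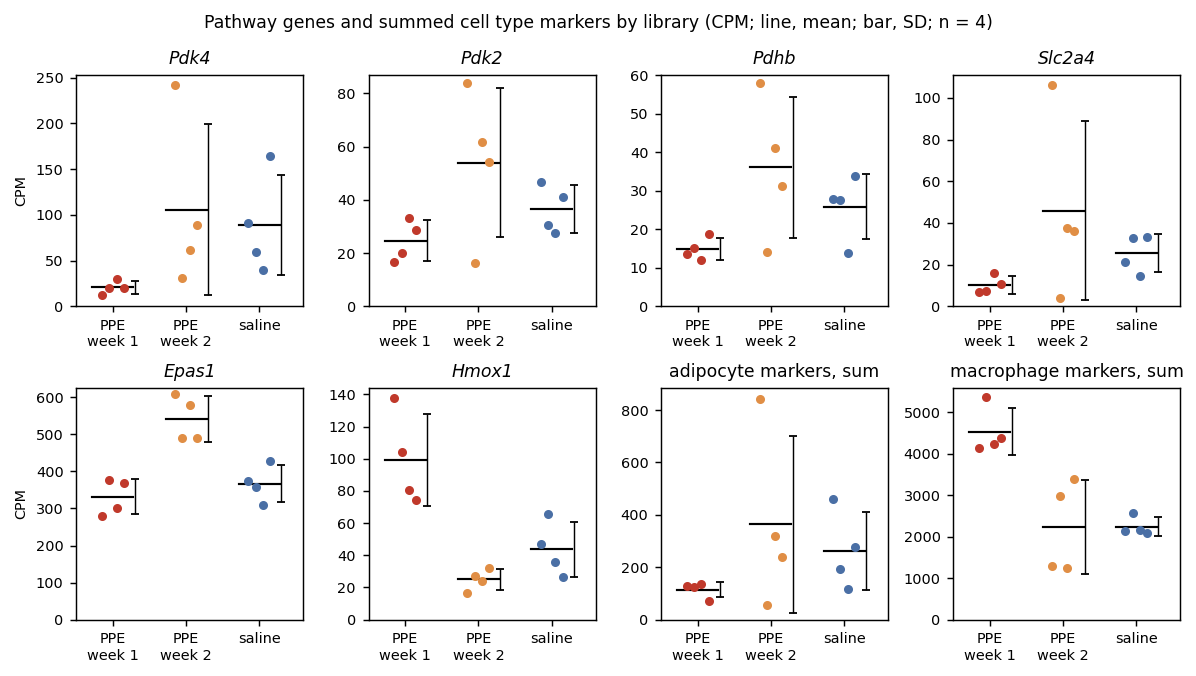
Level in CPM (vertical axes, linear, from 0) of 6 pathway genes and the summed CPM of 6 adipocyte and 10 macrophage and monocyte markers in PPE week 1, PPE week 2 and saline; each point is 1 library, the line is the mean and the bar the SD over 4 libraries. Pdk4 lies at 12.3 to 29.9 CPM at PPE week 1, below all libraries of PPE week 2 and saline, and the PPE week 2 library highest in Pdk4, at 242 CPM, is the one highest in adipocyte markers, at 844 CPM.

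The glycogen phosphorylases Pygm and Pygb rose at PPE week 2 against PPE week 1. Of 12 tested genes of the list on fructose 2,6-bisphosphate and glycogen, these 2 were called higher there and 0 lower, where 3.77% of all features were called higher and 2.82% lower. The liver phosphorylase Pygl, at 0.91 ± 0.42 on the log2 scale (edgeR adjusted p = 0.251), was not called. Of the same list 0 were called at PPE week 2 against saline, and 1 was called lower at PPE week 1 against saline. Pygm, the muscle glycogen phosphorylase, had 46.4, 33.5, 64.5 and 35.5 CPM at PPE week 2 and 13.3, 13.0, 6.96 and 15.8 CPM at PPE week 1. In saline it had 18.2, 39.8, 20.3 and 31.3 CPM, above every library of PPE week 1. For Pygm the log2 fold change was 1.88 ± 0.32 between PPE week 2 and PPE week 1 (edgeR adjusted p = 0.00289) and -1.16 ± 0.32 at PPE week 1 against saline (edgeR adjusted p = 0.0334).

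The call of Pygm between the PPE weeks held under all 23 alternatives. Its call at PPE week 1 against saline was lost with scaling to the total count, limma-voom, the replicate block and the NR_046233 covariate, at adjusted p of 0.0613 to 0.558, and without each of saline replicates 2 and 4 and PPE week 1 replicates 1, 2 and 3, at 0.0713 to 0.110. Pygb, the brain glycogen phosphorylase, had 183, 154, 220 and 151 CPM at PPE week 2 and 106, 95.2, 87.2 and 109 CPM at PPE week 1, which do not overlap. In saline Pygb had 109, 139, 99.7 and 150 CPM, which overlapped PPE week 1 and lay below PPE week 2. Between the PPE weeks its log2 fold change was 0.83 ± 0.16 with an edgeR adjusted p of 0.00608. That call was lost only with the NR_046233 covariate, at 0.0717. Between the PPE weeks the smooth muscle sum moved in the direction of both genes, at 4461 to 9985 CPM at PPE week 2 and 1611 to 2902 CPM at PPE week 1. In saline it was 4896 to 6426 CPM, which overlapped PPE week 2, as Pygm did and Pygb did not. The part of smooth muscle in the levels of both genes was not tested.

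Pfkfb4, an enzyme that sets the level of fructose 2,6-bisphosphate and is induced by hypoxia, had a log2 fold change of 1.07 ± 0.35 at PPE week 1 against saline and missed the threshold, with an edgeR adjusted p of 0.0676. In the pentose phosphate pathway 5 of 7 genes were tested and 0 were called in any comparison by edgeR. In the order used above, 1, 2 and 1 of them had higher levels with an unadjusted p under 0.05, and none had lower.

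Of the list on oxygen sensing and HIF subunits, Epas1 was called higher at PPE week 2. Epas1, which encodes the HIF-2 alpha subunit and is abundant in endothelium and mesenchymal cells, had 609, 489, 580 and 490 CPM at PPE week 2, 281, 376, 302 and 370 CPM at PPE week 1, and 373, 358, 309 and 429 CPM in saline. All libraries of PPE week 2 lay above those of both other groups. The log2 fold change was 0.71 ± 0.13 against PPE week 1 and 0.56 ± 0.13 against saline, with edgeR adjusted p of 0.00509 and 0.0329. At PPE week 1 the value was -0.14 ± 0.13 against saline, with an edgeR adjusted p of 0.612.

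The call of Epas1 between the PPE weeks was lost only with the NR_046233 covariate, at an adjusted p of 0.110. Its call at PPE week 2 against saline was lost with only the 8 libraries compared, the replicate block and the covariate, at 0.0602 to 0.853, and without each of saline replicates 1, 2 and 3 and PPE week 2 replicates 1 and 3, at 0.0528 to 0.115. The 4 endothelial markers with counts summed to 706 to 1182 CPM at PPE week 2, 671 to 781 CPM at PPE week 1 and 635 to 849 CPM in saline, ranges that overlap. Between the PPE weeks 1 of these 4, Vwf, was called higher, and their median log2 fold change was -0.03. Of the 6 fibroblast markers 1, Pi16, was called higher there, with a median of -0.21. The smooth muscle sum was 4461 to 9985 CPM at PPE week 2, 1611 to 2902 CPM at PPE week 1 and 4896 to 6426 CPM in saline, and between the PPE weeks 6 of 8 smooth muscle markers were called higher, with a median log2 fold change of 1.76. The part of these cell types in the level of Epas1 was not tested.

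No other gene of the oxygen-sensing list was called, among 8 of 10 tested. Hif1a, the other main HIF alpha subunit, had 36 counts over all libraries in 3 accessions and was not tested. The hydroxylases Egln1 and Egln2 had log2 fold changes of 0.31 ± 0.21 and 0.35 ± 0.18 at PPE week 2 against saline, with edgeR adjusted p of 0.508 and 0.356. Egln1 had 0.64 ± 0.21 between PPE week 2 and PPE week 1, with an edgeR adjusted p of 0.0757.

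Of 32 other hypoxia-induced genes 25 were tested, and few were called. At PPE week 1 against saline 1 was called higher and 1 lower, beside 7.89% of all features. At PPE week 2 against saline 0 were called higher and 2 lower, beside 2.65% of all features, and between PPE week 2 and PPE week 1 there were 1 higher and 2 lower, beside 6.59%. The list's median log2 fold change was 0.0039, 0.05 and -0.23 in these comparisons, beside 0.0027, 0.05 and 0.02 over all features. With 2 of 25 called at PPE week 1, the list's share there was near that of all features and is not a result about the list. Vegfa, the vascular growth factor, was listed at 0 in all 10 of its accessions and was not tested.

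Hmox1, haem oxygenase 1, which is also induced by haem and oxidative stress, had 138, 104, 80.7 and 74.4 CPM at PPE week 1. It had 16.6, 27.1, 24.3 and 32 CPM at PPE week 2, and in saline 46.8, 65.9, 35.8 and 26.5 CPM. All libraries of PPE week 1 lay above those of the other groups. The log2 fold change was 1.19 ± 0.28 at PPE week 1 against saline (edgeR adjusted p = 0.0161) and -1.99 ± 0.28 between PPE week 2 and PPE week 1 (edgeR adjusted p = 0.00109). The second call held under all 23 alternatives, and the first was lost with the NR_046233 covariate, at 0.0529, and without each of saline replicates 3 and 4 and PPE week 1 replicates 1 and 2, at 0.0509 to 0.0624. Hmox1 is abundant in macrophages, whose marker sum was likewise higher at PPE week 1 than at PPE week 2 or in saline, and their part was not tested.

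Car9, carbonic anhydrase 9, a HIF target in many tissues, fell at PPE week 1. It had 2.75, 4.42, 2.47 and 2.00 CPM at PPE week 1 and 6.27, 8.79, 9.15 and 20.4 CPM in saline, which do not overlap. The log2 fold change was -1.94 ± 0.52 with an edgeR adjusted p of 0.0315. The call was lost with scaling to the total count, limma-voom, the replicate block and the NR_046233 covariate, at 0.0539 to 0.163, and without each of saline replicates 3 and 4 and any 1 of the PPE week 1 replicates, at 0.0539 to 0.150.

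Plod2, a collagen lysyl hydroxylase, fell at PPE week 2, with 6.81, 6.14, 7.18 and 3.09 CPM at PPE week 2 and 14.6, 12.7, 21.6 and 19.8 CPM in saline. The groups did not overlap. The log2 fold change was -1.56 ± 0.38 with an edgeR adjusted p of 0.0376. The call was lost with scaling to the total count, only the 8 libraries compared, the replicate block and the covariate, at 0.0530 to 0.853, and without each of saline replicates 1, 3 and 4, PPE week 1 replicates 2 and 3, and PPE week 2 replicates 2 and 4, at 0.0561 to 0.114.

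Higd1a, a hypoxia-induced protein of the mitochondrial inner membrane, had 13.5, 5.47, 11.4 and 11.5 CPM at PPE week 2 and 3.49, 4.42, 4.04 and 4.59 CPM at PPE week 1. In saline it had 11.3, 6.26, 9.41 and 8.80 CPM, above every library of PPE week 1 and within the range of PPE week 2. Against saline edgeR called it at neither week, and DESeq2 called it lower at PPE week 1 (log2 fold change -1.14, adjusted p = 0.0299). The 2 PPE groups did not overlap. Between them the log2 fold change was 1.34 ± 0.39 with an edgeR adjusted p of 0.0473. The edgeR call between the PPE weeks was lost in 5 of the 11 alternatives that kept all libraries or the 8 compared. It was also lost without each of 10 libraries, all but saline replicate 2 and PPE week 2 replicate 2, at 0.0606 to 0.135.

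Ankrd37, an ankyrin-repeat gene known as a HIF target, had 0 counts in all 4 libraries of PPE week 2. It had 17, 28, 33 and 20 counts at PPE week 1 and 68, 5, 8 and 0 counts in saline, where 1 library held most of the counts. With 3 counts over the group as the floor, its level at PPE week 2 was at least 35.0-fold lower than at PPE week 1 and at least 37.4-fold lower than in saline. The edgeR adjusted p were 0.0257 and 0.0469. The bounds here and in the next sentence take counts as independent and would be smaller if counts came in pairs. Without saline replicate 1, an alternative chosen after seeing the data, the other saline libraries held 13 counts, and the level at PPE week 2 was at least 9.11-fold lower than in saline. The call against saline was lost with limma-voom, the replicate block and the covariate, at 0.137 to 0.638, and without each of 11 libraries, all but saline replicate 4, at 0.0604 to 0.138. The call against PPE week 1 was lost with the NR_046233 covariate, at 0.10, and when replicate 2 or 3 of PPE week 1 or replicate 3 of PPE week 2 was left out, at 0.0519 to 0.0725. Bnip3l, the paralog of Bnip3, had a log2 fold change of -0.50 ± 0.19 at PPE week 1 against saline, with an edgeR adjusted p of 0.118, and was not called.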

How the data were processed

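RNA was sequenced from 12 aortas, per the labels. The authors deposited whole-number read counts by RefSeq accession for each library, not normalised. They also deposited results of their own tests of each PPE week against the control group, in which each accession listed has a log2 fold change with its raw and adjusted p-value. Names in the submitters' processing notes are bcl2fastq, DESeq2 and the build mm10. Which aligner, counter and annotation release were used is not given in the sources used here. As the kit, per the labels' protocols a TruSeq v2 kit, does not mark strand, reads of genes overlapping on opposite strands could not be told apart. Between 66.0 and 75.6% of counts of 2 to 20 were even, and halved counts were an alternative.

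Accessions were named from RefSeq's GRCm38.p6 gene table and GENCODE vM21. From the counts, edgeR 4.0.16 in R 4.3.3 gave the tests: filterByExpr, TMM scaling, and a robust quasi-likelihood fit to all 12 libraries with 1 mean per group, two-sided, with Benjamini-Hochberg adjustment over 12756 features. The biological coefficient of variation was 0.512. The fit shares 1 estimate of the spread among the 3 groups. NR_046233 stayed in the table and in the library totals. Alternatives used limma 3.58.1 and DESeq2 1.42.0. The fit was tested on simulated data. Among replicates the chi-square per feature was 15.5 to 96.2, far above sampling noise, so each library counted as 1 sample.

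Named were all members, their listed isoforms, the genes called in any comparison from lists chosen by function, and the 2 genes nearest to each called member in centred log2 CPM (prior count 2). The members and lists were chosen with earlier results of these data known. Pkm, Aldoa, Slc2a4, Pfkfb4 and Gapdh were named after their values were seen. Some marker genes are not reported here, and the marker sums leave them out.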

Additional observations from a re-analysis of the deposited data

Results flagged for a closer look

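Of 50 checks of a member or called gene within a group of 4 libraries, 2 found a library far from the others, where chance gives about 1 in 20. Pdk1 had its lowest PPE week 2 library at 29.6 CPM, with the others at 47.5 to 50.1 CPM. Bnip3 had its highest PPE week 1 library at 17.9 CPM, with the others at 12 to 12.5 CPM.

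The responses at PPE week 2 and PPE week 1 differed for 7 pathway genes and for 0 of 8 tested members, where 6.59% of all features were called. These are the edgeR calls between PPE week 2 and PPE week 1 given above, with the number tested in each list, and not a further test. The log2 difference, week 2 minus week 1, was 1.28 for Pdhb, 0.83 for Pygb, 1.88 for Pygm, 0.71 for Epas1, 1.34 for Higd1a and -1.99 for Hmox1. With counts taken as independent, Ankrd37 was at least 35.0-fold lower at PPE week 2 than at PPE week 1.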

How the results depend on the processing

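Under the 23 alternatives, 1006 values of a gene in a comparison kept their direction and side of the threshold, 6 gained a call, 92 lost one and 57 changed sign. With the replicate block the features called numbered 204 at PPE week 2 against saline, against 338 without it. Same-numbered libraries did not deviate together (12 correlations from -0.0881 to 0.0353), so the numbers do not pair them.

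At PPE week 1 against saline 1007 features were called. DESeq2 called 1602, the 8 libraries compared 2026, the NR_046233 covariate 82, and leaving out 1 library 378 to 1396. The covariate, which differs between the groups, left 0 members called. At PPE week 2 against saline, scaling to the total count called 1638 features and 2 members, Slc2a1 and Bnip3. In the same comparison DESeq2 called 755 features and 1 member, the 8 libraries 74, the covariate 0, and leaving out 1 library 139 to 381. Between PPE week 2 and PPE week 1, 841 were called, with DESeq2 1463, with the 8 libraries 521, with the covariate 69, and without 1 library 319 to 1213. Scaling to the total count put the median log2 fold change of all features at 0.281, 0.538 and 0.229 in the 3 comparisons, and 84.1, 98.4 and 90.1% of its calls were higher, against 50.4, 49.1 and 57.2% with TMM.

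Signs changed as follows, on the log2 scale; the cause was not tested. At PPE week 1: Ldha 0.11 (total count), 0.84 (voom), 0.44 (block); Pdk1 -0.25, Bnip3 -0.019 and Ankrd37 -0.59 (covariate); Bnip3 -0.0072 (voom); Epas1 0.12 (total count). At PPE week 2: Pgk1 -0.11 (voom), -0.014 (no filter), -0.0031 (8 libraries), -0.052 (block) and -0.20 (covariate); Pdk1 -0.36, Higd1a -0.13 and Hmox1 0.10 (covariate). Between PPE week 2 and PPE week 1: Hk2 0.14 (total count) and 0.041 (covariate); Pfkp 0.12 (total count) and 0.72 (covariate); Pdk1 -0.11 (covariate); Egln3 0.0067 (RLE), 0.24 (total count), 0.032 (total count without NR_046233), 0.0071 (DESeq2), 0.013 (8 libraries), 0.023 (halved) and 0.0011 (summed per gene). Over the omissions of 1 library, the range at PPE week 1 was -0.50 to 1.27 for Ldha, -0.064 to 0.25 for Pdk1, -0.12 to 0.19 for Bnip3 and -0.18 to 1.92 for Ankrd37. It was -0.24 to 0.42 for Hk2, -0.22 to 0.24 for Pgk1 and -2.19 to 0.40 for Ldha at PPE week 2, and -0.56 to 0.11 for Hk2, -0.29 to 0.17 for Pfkp and -0.46 to 0.27 for Egln3 between the weeks.

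Precision is limited by 4 libraries a group, by members with few counts (Ldha, Pfkp, Egln3), and by reads shared between accessions. The floors of 3 counts cover counting error only and take counts as independent, which the share of even counts leaves in doubt.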
